A study of Drosophila melanogaster with 4 samples.

Results

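The cuticle protein genes of Drosophila melanogaster were examined in RNA labelled as coming from heads of male flies fasted for 24 h. They were taken as all genes whose symbol in the platform's probe annotation starts with Cpr plus a digit, Lcp plus a digit, Ccp84, Edg, Twdl or Acp65A, and the brightest probe set with 1 symbol stood for each gene. That gave 104 genes of the 11981 genes with such a probe set. The rule reads names alone and no signal, though the family was picked with earlier results of these data known. There were 4 Affymetrix arrays, 1 each for the groups named WT control, TORC mutant, rescue control and TORC neuronal rescue. TORC, whose gene is now called Crtc, is a protein that helps the transcription factor CREB to activate its targets. Fasting is common to all 4 groups. The labels state no allele, promoter, driver, strain or age for any group, so what the rescue control carries besides its name is not known here. With 1 array per group there is no replicate error, and every difference below is one between single arrays, with no p-value.

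Insect cuticle is the apical extracellular matrix of the epidermis, built of chitin fibres in a matrix of proteins. Most cuticle proteins belong to the CPR family, which binds chitin through the Rebers and Riddiford domain. The Tweedle proteins (Twdl) form a separate family of cuticle proteins. Lcp genes were named for larval cuticle, Edg genes for their dependence on ecdysone in prepupae, and Acp65Aa for adult cuticle. Many of these genes are switched on in short waves around a moult, when the steroid hormone ecdysone rises and falls, and are silent at other times. In the adult head, cuticle forms the head capsule, mouthparts, antennae, bristles and the corneal lenses of the eye.

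The MAS5 signal is a linear intensity per probe set, on which 1 probe set cannot be ranked against another. Signals below 14 were raised to 14, called the floor here, before log2 ratios were taken. A ratio with a signal at the floor is written as a lower bound. A gene was called when its signals on the arrays compared differed 2-fold or more, which is a log2 ratio of 1 or beyond. To give the precision of a ratio, genes with exactly 2 probe sets above the floor were used. The robust SD of a log2 ratio from a single probe set was 0.34 between mutant and WT control, from 375 such genes, and 0.35 between neuronal rescue and rescue control, from 331. This spread leaves out variation between flies and between RNA preparations.

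Facts about the arrays bear on every result below. Crtc itself had a signal of 203 in WT control heads, 3.8 in mutant heads, 6.7 in rescue control heads and 37.4 in neuronal rescue heads, so both the mutant and the rescue control lay below the floor. The head tissue lists were above the floor on every array, with all 9 photoreceptor, 15 neuronal and 12 glial genes detected. Markers of other tissues, some of them outside the head, were also present. The 10 testis genes summed to a signal of 5818 in WT control heads and 11102 in neuronal rescue heads, against 59.9 in mutant heads and 101 in rescue control heads. In the mutant no testis gene lay above the floor, and in rescue control heads 4 did. On the accessory gland and ejaculatory tract list, 12 of 13 genes were called lower in mutant than in WT control heads and 12 higher in neuronal rescue than in rescue control heads. The exception, EbpIII, had 7925, 7725, 7644 and 8165 on the arrays of WT control, mutant, rescue control and, last, neuronal rescue, and made up most of that list's sums of 7788 in mutant and 7728 in rescue control heads. Gut genes, 19 in number, summed to 9084 in WT control heads, 154 in mutant heads, 2769 in rescue control heads and 5669.9 in neuronal rescue heads. The 7 flight muscle genes summed to 18638, 8469, 27559 and 12406 in the same order, with 5 of them lower in mutant heads and 4 lower in neuronal rescue heads in the main comparisons. The 6 oenocyte genes, markers of cells under the abdominal epidermis, summed to 8248, 4188, 3712.5 and 9350, with 4 of them called lower in mutant heads and 4 higher in neuronal rescue heads. The 9 fat body genes summed to 16795, 30422.5, 20715 and 24571. The yolk protein genes among them are known from the female fat body. They were dim in rescue control heads and bright on the other arrays, though all arrays are labelled male. Yp1 had 3235, 4617, 17.6 and 4524, and Yp2 and Yp3 were 83.5-fold and 15.3-fold higher in neuronal rescue than in rescue control heads. The part of these tissues in the results on cuticle genes was not tested. Bacillus transcripts added before labelling had a mean signal of 77.3 and 76.8 on the WT control and mutant arrays and of 351 and 261 on the rescue control and neuronal rescue arrays, so each main comparison lies within 1 of these pairs.

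Most cuticle protein genes were dim on all arrays. Of the 104 genes, 52 lay at or below the floor on every array, which was so for 1812 of all 11981 genes (15.1%). Another 26 lay above the floor on 1 to 3 arrays, and 26 lay above it on all 4, that is 25%, against 62.4% of all genes. The number above the floor was 37 in WT control heads, 39 in mutant heads, 36 in rescue control heads and 40 in neuronal rescue heads. Those shares, between 34.6% and 38.5%, stayed level while the share of all genes above the floor went from 65.8% in mutant heads and 68.1% in rescue control heads to 79.6% in WT control heads and 80.5% in neuronal rescue heads. A gene at the floor on both arrays of a comparison cannot be called. The shares of calls given below include such genes, which were more frequent in the family than among all genes.

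**Figure D1:**
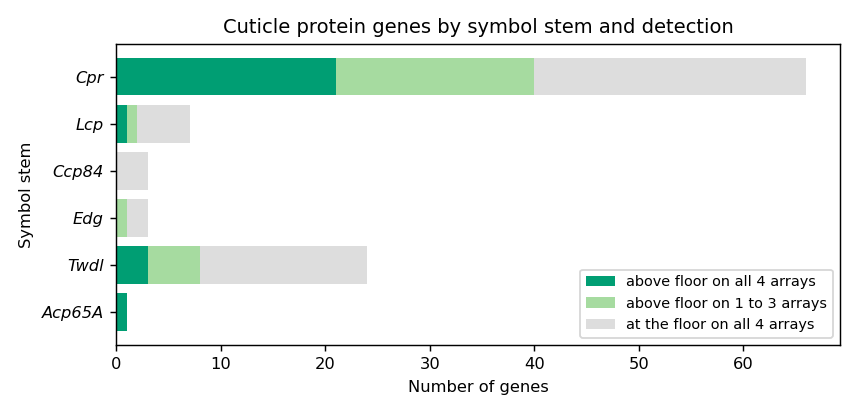
Number of cuticle protein genes (x axis) for each symbol stem (y axis), divided by the number of arrays on which the signal was above 14. The Cpr genes supplied 21 of the 26 genes above the floor on all 4 arrays, and all 3 Ccp84 genes lay at the floor.

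Detection differed by symbol stem. Of 66 Cpr genes, 40 were above the floor on at least 1 array and 21 on all 4. Of 24 Twdl genes, 8 were above it on at least 1 array and 3 on all 4, namely TwdlG, TwdlH and TwdlT. Of 7 Lcp genes, Lcp65Ac was above the floor on all 4 arrays, with signals of 42, 32, 33.7 and 44.1 on the arrays of WT control, mutant, rescue control and, last, neuronal rescue. Lcp65Aa was above it only on the neuronal rescue array, at 22.7. A dimmer probe set of Lcp65Aa, not used here, was below the floor on every array, at 5.5, 2.1, 8.7 and 6.7. The ecdysone-dependent Edg78E and Edg84A were at the floor throughout, and Edg91 reached 27.7 in mutant heads and 22.1 in neuronal rescue heads. Acp65Aa, the adult cuticle gene, was above the floor on every array. The signals of the 3 Ccp84 genes did not exceed 10.2.

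Genes that are neighbours in the genome were not all detected together. In the RefSeq gene order (Release 6), 68 of the 104 genes lay in 18 runs of 2 or more cuticle genes with no other protein-coding gene between them, and 36 stood alone. The longest run held 11 Tweedle genes from TwdlM to TwdlD, of which TwdlH alone was above the floor on all 4 arrays. A run of 10 genes at the Lcp65A and Cpr65A locus had 3 such genes, Cpr65Au, Lcp65Ac and Acp65Aa, beside 6 that were at the floor on every array. In all 18 runs, 19 of the 68 genes were detected on every array, against 7 of the 36 genes that stood alone. In the 6 runs of 4 or more genes it was 8 of 37. The run of Cpr62Ba, Cpr62Bb and Cpr62Bc and the pair Cpr97Ea and Cpr97Eb were above the floor on every array. The 4 genes of the Cpr64A run were each above it on 2 or 3 arrays.

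**Figure D2:**
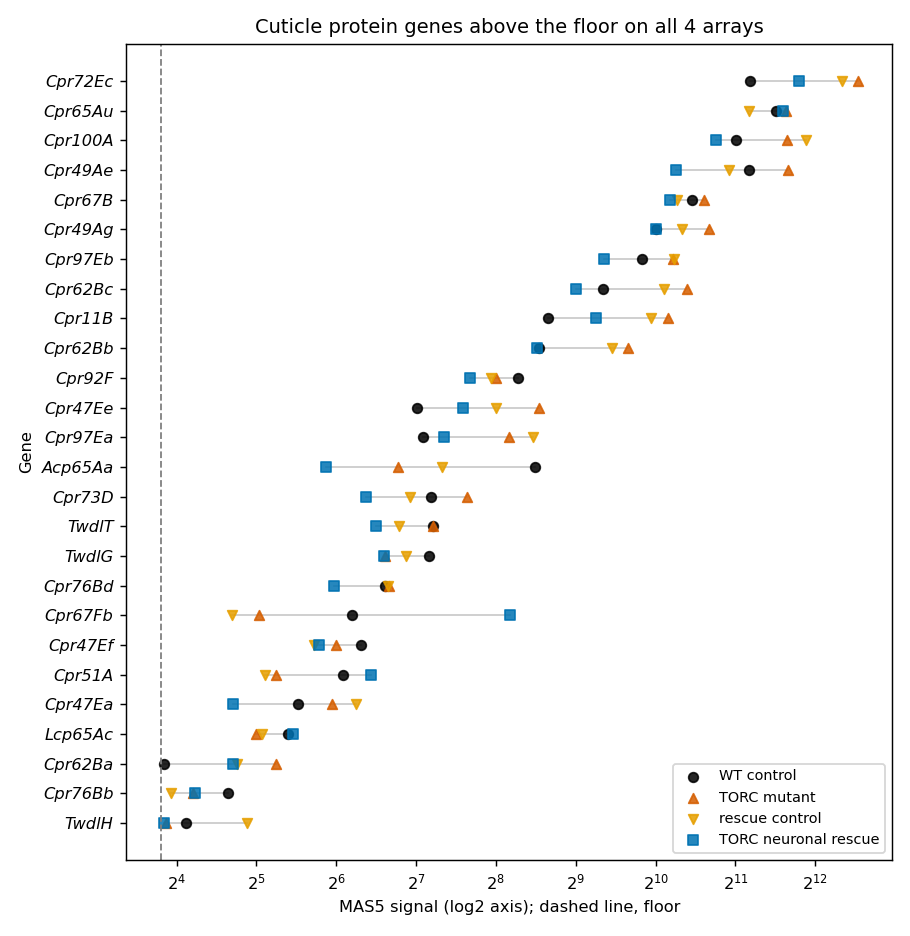
MAS5 signal (x axis, log2 scale) of each of the 26 cuticle protein genes above the floor on all 4 arrays (y axis, ordered by mean log2 signal), with 1 point per array and a dashed line at the floor of 14. The mutant array held the highest signal for 13 genes and the neuronal rescue array the lowest for 14; signals of different genes come from different probe sets and cannot be ranked against each other.

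Some of the bright genes differed little between the arrays. Cpr65Au (Entrez gene 59158) had a signal of 2900.1 in WT control heads, 3177 in mutant heads, 2312 in rescue control heads and 3087 in neuronal rescue heads. Cpr67B (39081) had 1404, 1558, 1229 and 1158 in the same order. Cpr92F (42450) had 309.6, 256, 246 and 204. In the deposited scaling none of these CPR genes reached 2-fold between any of the arrays. The Tweedle gene TwdlT (44790), with 148, 149, 110.4 and 90.1, and TwdlG (40535), with 144, 97.8, 117 and 97.2, also stayed within 2-fold. With median centring Cpr65Au and Cpr67B passed 2-fold for the mutant over the WT control, at log2 ratios of 1.02 and 1.04. Cpr92F, TwdlT and TwdlG then passed it for the neuronal rescue over the rescue control, at -1.12, -1.15 and -1.12. The medians of all genes were then 0.81 and -0.85. Cpr49Ag had 1027, 1633, 1285 and 1027, with its highest value in mutant heads and equal values in heads of the WT control and neuronal rescue.

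Mutant and WT control heads were compared to see which transcripts differ without TORC. Among cuticle protein genes, 7 lay at least 2-fold higher in mutant heads, all of them CPR genes with both signals above the floor: Cpr47Ee, Cpr11B, Cpr62Ba, Cpr72Ec, Cpr62Bb, Cpr97Ea and Cpr62Bc. That is 6.73% of the 104 genes, against 1.74% of all 11981 genes called higher. There were 5 lower genes, Cpr49Ab, Acp65Aa, Cpr49Af, Cpr67Fb and Cpr76Bc, or 4.81% against 11.5% of all genes. For Cpr49Ab and Cpr76Bc the mutant signal was at the floor.

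Cpr72Ec (39816) is a CPR gene whose product is a component of the corneal lens. Its signal was 2316 in WT control heads, 5913 in mutant heads, 5145 in rescue control heads and 3559 in neuronal rescue heads. It was 2.55-fold higher in mutant heads than in WT control heads, and the mutant and rescue control lay above both other arrays. The gene for another lens protein, retinin, was looked up after the values of Cpr72Ec had been seen. Its signals of 9081, 9773, 11055 and 10367 differed by a log2 ratio of 0.11 between mutant and WT control. Cpr66D, a further lens component of the CPR family, was near the floor on all arrays, at 15.5, 12.6, 16.2 and 8.6.

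Cpr11B (32203) had a signal of 401 in WT control heads, 1139.7 in mutant heads, 983 in rescue control heads and 612 in neuronal rescue heads, 2.84-fold higher in mutant heads than in WT control heads. Cpr47Ee (36193) had 129, 371, 255 and 192, a 2.89-fold difference. As for Cpr72Ec, the mutant had the highest signal of the 4 and the WT control the lowest. Of the other genes in its run, Cpr47Ef had 79.2, 63.7, 52.6 and 55, short of 2-fold, while Cpr47Ed was at the floor on all arrays and Cpr47Ec on all but the rescue control array, where it had 17.7. A dimmer probe set of Cpr47Ef, not used here, had 14.4, 1.6, 9.5 and 3.

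All 3 genes of the Cpr62B run were called higher in mutant heads. Cpr62Bb (38240) had 372 in WT control heads, 805 in mutant heads, 700.5 in rescue control heads and 366 in neuronal rescue heads. Cpr62Bc (38241) had 649.8, 1349.5, 1099 and 514. Cpr62Ba (38239) was dim, at 14.4, 38.1, 27 and 26.1, so its WT control signal was barely above the floor. The mutant signals were 2.16-fold, 2.08-fold and 2.65-fold those of the WT control. For Cpr62Bb and Cpr62Bc the mutant and rescue control again lay above the WT control and neuronal rescue, while for Cpr62Ba the rescue control and neuronal rescue were alike. With the floor at 28, the log2 ratio of Cpr62Ba in mutant heads came to 0.44, and with quantile normalization that of Cpr62Bc came to 0.97, both short of 2-fold.

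The neighbours Cpr97Ea and Cpr97Eb were both highest in rescue control heads, with the mutant next. Cpr97Ea (43258) had a signal of 136 in WT control heads, 287 in mutant heads, 354 in rescue control heads and 163 in neuronal rescue heads, 2.12-fold higher in mutant heads than in WT control heads. Cpr97Eb (43259) had 906, 1192, 1203 and 654, a log2 ratio of 0.40 for the mutant over the WT control. Cpr100A (43657) had 2065, 3209, 3763 and 1726, also highest in rescue control heads, with a log2 ratio of 0.64 in mutant heads.

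The 5 lower genes did not share 1 order of arrays. Acp65Aa (38710) had a signal of 359 in WT control heads, 109 in mutant heads, 160 in rescue control heads and 58.5 in neuronal rescue heads. It was 3.28-fold lower in mutant heads than in WT control heads, and the WT control stood above all other arrays. Cpr49Ab (36345) had 114, 9.1, 21.5 and 50.6, so it was at least 8.12-fold lower in mutant heads. Cpr49Af (36352) had 58.7, 20.5, 9.3 and 23.9, which is 2.86-fold lower in mutant heads. Both were brightest in WT control heads, with the neuronal rescue next. Cpr67Fb (39225) had 73.6, 32.8, 25.9 and 289, which is 2.24-fold lower in mutant heads, and here the neuronal rescue was brightest. Cpr76Bc, at 28.9 in WT control heads and 14 in mutant heads, was at least 2.06-fold lower. Of these 5 calls, quantile normalization ended those of Cpr49Af, Cpr67Fb and Cpr76Bc, with log2 ratios of -0.82, -0.72 and 0.0082. Median centring ended these and that of Acp65Aa, which came to -0.83, and centring on the photoreceptor, neuronal and glial lists ended that of Cpr76Bc, which came to -0.90. The arrays on which Cpr49Ab and Cpr67Fb were bright were also those with bright testis and accessory gland genes. Their part in these values was not tested.

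Neuronal rescue and rescue control heads were compared to see which transcripts differ when TORC is returned to neurons. Here 8 cuticle protein genes lay at least 2-fold lower in neuronal rescue heads, 7.69% of the 104 genes against 1.51% of all genes. They were Cpr64Ac, Cpr47Ea, Acp65Aa, Cpr64Aa, Cpr97Ea, Cpr100A, Cpr62Bc and TwdlH. Higher in neuronal rescue heads were 3 genes, Cpr67Fb, Cpr51A and Cpr49Ab, or 2.88% against 12.8% of all genes. In this comparison the head lists themselves had medians below 0, with log2 ratios of -0.19 for photoreceptor, -0.38 for neuronal and -0.26 for glial genes. With each array centred on those lists, 4 cuticle genes were lower (Cpr64Ac, Cpr47Ea, Cpr64Aa and Acp65Aa) and 4 higher (Cpr67Fb, Cpr51A, Cpr49Ab and Cpr49Af), 3.85% each, against 0.668% and 15.1% of all genes. Cpr97Ea, Cpr100A, Cpr62Bc and TwdlH then had log2 ratios of -0.84, -0.84, -0.81 and -0.76.

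Cpr100A was 2.18-fold lower in neuronal rescue heads than in rescue control heads, Cpr97Ea 2.17-fold and Cpr62Bc 2.14-fold. For Cpr62Bb the log2 ratio was -0.94, and for Cpr97Eb it was -0.88, both short of 2-fold. Cpr47Ea (36188), which had signals of 45.8 in WT control heads, 61.5 in mutant heads, 76.2 in rescue control heads and 26.2 in neuronal rescue heads, was 2.91-fold lower. Its order of arrays was that of Cpr100A, with the rescue control highest and the neuronal rescue lowest. Cpr72Ec, Cpr11B and Cpr47Ee, which were called higher in mutant heads, were 1.45-fold, 1.61-fold and 1.33-fold lower in neuronal rescue heads and were not called.

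The Cpr64A run and TwdlH were brightest on the rescue control array, except Cpr64Ab. Cpr64Ac (38510) had a signal of 1.7 in WT control heads, 20.8 in mutant heads, 46.3 in rescue control heads and 4 in neuronal rescue heads, at least 3.31-fold lower in the last than in rescue control heads. Cpr64Aa (38508) had 18, 16, 32.6 and 8.8, at least 2.33-fold lower. Cpr64Ad had 12.7, 16.9, 27.4 and 23.1, which differed little between these arrays. Cpr64Ab had 25.2, 14.6, 13.4 and 7.3 and was brightest in WT control heads. TwdlH (43208) had 17.3, 14.6, 29.6 and 14.4, 2.06-fold lower in neuronal rescue heads. These genes lie close to the floor. With the floor at 28, Cpr64Aa, Cpr64Ac and TwdlH had log2 ratios of -0.22, -0.73 and -0.08, and none was called.

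Cpr67Fb had the largest ratio of the family in this comparison, at 11.2-fold higher in neuronal rescue heads. Its run neighbours Cpr67Fa1 and Cpr67Fa2 were at the floor on every array. Cpr51A (36613) had signals of 67.8 in WT control heads, 38 in mutant heads, 34.4 in rescue control heads and 86.2 in neuronal rescue heads, 2.51-fold higher in neuronal rescue heads. Cpr49Ab was 2.35-fold higher. The calls of Cpr51A and Cpr49Ab ended with quantile normalization, at log2 ratios of 0.85 and 0.49, and with median centring, at 0.47 and 0.38. All 3 were brighter in heads of the WT control and neuronal rescue than in heads of the mutant and rescue control, as the testis list was. Cpr67Fb was 3.93-fold higher in neuronal rescue heads than in WT control heads, Cpr51A 1.27-fold higher and Cpr49Ab 2.25-fold lower. The part of tissues outside the head in these values was not tested.

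Acp65Aa was the 1 cuticle gene called in the same direction in both comparisons, 2.74-fold lower in neuronal rescue heads than in rescue control heads as well as lower in mutant heads than in WT control heads. Its 4 signals ran from 359 in WT control heads through 160 in rescue control heads and 109 in mutant heads to 58.5 in neuronal rescue heads.

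**Figure D3:**
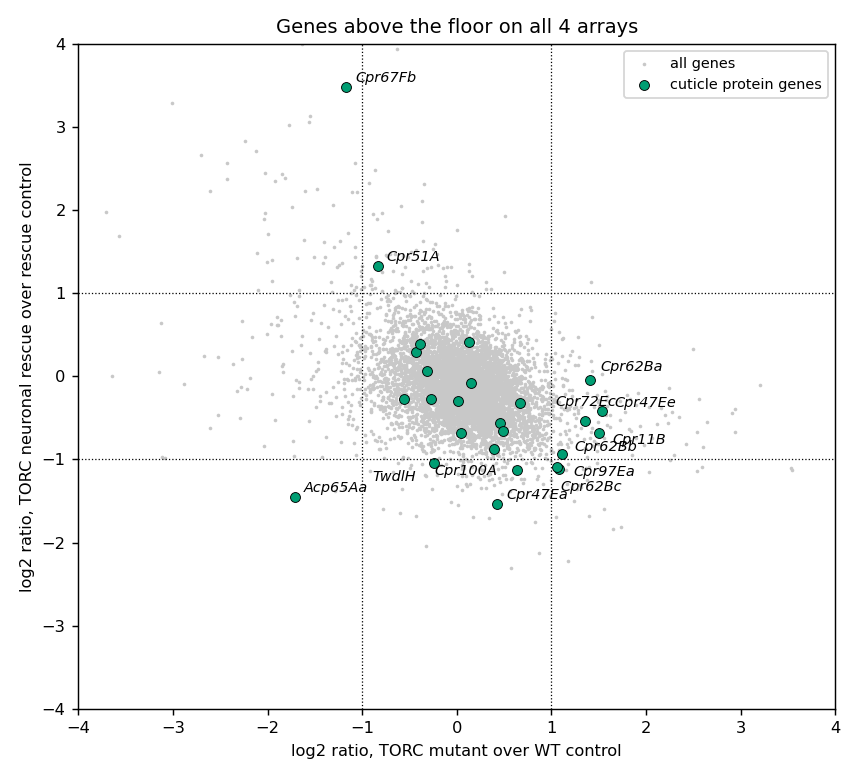
Log2 ratio of the mutant over the WT control (x axis) against log2 ratio of the neuronal rescue over the rescue control (y axis) for the 7478 genes above the floor on all 4 arrays (grey) and the 26 cuticle protein genes among them (green, named where called). Dotted lines mark 2-fold, 17 grey points lie outside the axes, and 16 of the 26 cuticle genes sit in the lower right part of the plot, higher in mutant heads and lower in neuronal rescue heads.

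The main comparisons share no array, so their signs can be set side by side, a count chosen after the values had been seen. Of the 26 cuticle genes detected on every array, 16 (61.5%) had a ratio above 0 for the mutant over the WT control and below 0 for the neuronal rescue over the rescue control. The same held for 43.2% of the 7478 genes with that level of detection. With quantile normalization it was 16 of 25 (64%) against 55.3%, and with a floor of 7, which passes more genes, 19 of 41 (46.3%) against 41.0%. After centring on the head lists it was 14 of 24 (58.3%) against 25.0% of all such genes, and after median centring 20 of 23 (87.0%) against 93.7%, so the gap to the background moves with the setting and turns round under median centring. With 2-fold in both comparisons, Cpr62Bc and Cpr97Ea remained, 2 of 26 genes against 30 of 7478. Both also passed with median centring. After centring on the head lists neither did, at log2 ratios of -0.81 and -0.84 in neuronal rescue heads. With quantile normalization Cpr62Bc fell short in mutant heads, at 0.97. Opposite signs the other way, lower in mutant heads and higher in neuronal rescue heads, were found for 5 of the 26 genes, among them Cpr67Fb and Cpr51A, or 19.2% against 20.3% of all such genes. The mutant array had the highest signal for 13 of the 26 genes (50%, against 33.1% of all such genes), and the neuronal rescue array the lowest for 14 (53.8%, against 37.5%).

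As a list, the 52 genes above the floor on at least 1 array had a median log2 ratio of 0.0044 for the mutant over the WT control, with a range from -3.02 to 1.53, against -0.0037 for the 10169 genes that passed the same filter. For the neuronal rescue over the rescue control the median was -0.15, with a range from -1.73 to 3.48, against -0.027. Among the 26 genes detected on every array the medians were 0.27 and -0.47, against 0.068 and -0.14 for the 7478 genes. The split of calls moved with the scaling. The 7 higher and 5 lower calls in the mutant became 10 and 2 with quantile normalization, and 19 and 1 with median centring, which moves the median of all genes by 0.81. Of all genes, 4.92% were then higher with quantile normalization, against 9.62% of the family, and 29.4% with median centring, against 18.3% of the family. The 3 higher and 8 lower calls in the neuronal rescue became 1 and 9 with quantile normalization and 1 and 21 with median centring. Of all genes, 6.91% were then lower with quantile normalization, against 8.65% of the family, and 31.7% with median centring, against 20.2% of the family. In both comparisons the family's share of these calls thus lay above that of all genes in the deposited scaling and below it with median centring. These shares are taken over all genes, detected or not. In the deposited scaling 50% of the family lay at the floor on every array and could not be called, against 15.1% of all genes. How far this lowers the family's shares was not tested.

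The other 4 pairings run across the split in the added Bacillus transcripts. Against the WT control, the rescue control had Cpr97Ea, Cpr11B, Cpr72Ec and Cpr64Ac higher, 3.85% of the family against 2.31% of all genes. It had Cpr49Ab, Cpr49Af, Cpr67Fb, Acp65Aa and Cpr76Bc lower, 4.81% against 11.1%. With median centring Acp65Aa, Cpr67Fb and Cpr76Bc were short of 2-fold here, at log2 ratios of -0.34, -0.68 and -0.48. With quantile normalization Cpr67Fb and Cpr76Bc were, at -0.99 and -0.45, and with centring on the head lists Cpr76Bc, at -0.90. The 4 higher calls became 7 with centring on the head lists, 11 with quantile normalization and 15 with median centring. The family's shares were then 6.73%, 10.6% and 14.4%, against 2.95%, 5.82% and 25.3% of all genes. The comparison of rescue control and WT control shares its WT control array with the one of mutant and WT control. Against the mutant, the rescue control had TwdlH, Cpr64Aa and Cpr64Ac higher (2.88% against 1.84%, with Cpr64Aa and TwdlH short of 2-fold under median centring and all 3 under quantile normalization) and Cpr50Cb lower (0.962% against 0.81%). Cpr50Cb had a signal of 25.7 in WT control heads, 36.7 in mutant heads, 7.9 in rescue control heads and 10.5 in neuronal rescue heads.

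Against the mutant, the neuronal rescue had 3 cuticle genes higher, Cpr67Fb, Cpr51A and Cpr49Ab, or 2.88% against 13.8% of all genes. It had 6 lower, or 5.77% against 2.98%. Cpr62Bc was 2.62-fold lower, Cpr49Ae 2.63-fold, Cpr73D 2.41-fold, Cpr47Ea 2.35-fold and Cpr62Bb 2.2-fold, and Cpr50Cb at least 2.62-fold. After centring on the head lists Cpr49Ae and Cpr50Cb were left, 1.92% of the family against 0.885% of all genes, and Cpr62Bc, Cpr73D, Cpr47Ea and Cpr62Bb had log2 ratios of -0.999, -0.88, -0.84 and -0.74, the first just short of 2-fold. Quantile normalization gave 13 lower, 12.5% against 8.34%, and median centring 23, 22.1% against 35.1%. Cpr49Ae (36351) had a signal of 2302 in WT control heads, 3225 in mutant heads, 1943 in rescue control heads and 1227 in neuronal rescue heads, and Cpr73D had 146, 199.6, 122 and 82.7. In both, the mutant was highest and the neuronal rescue lowest. Against the WT control, the neuronal rescue had Cpr67Fb higher (0.962% against 5.28%) and Acp65Aa, Cpr49Af, Cpr49Ab and Cpr76Bc lower (3.85% against 2.77%), with Acp65Aa 6.14-fold lower. After centring on the head lists Cpr49Af, Cpr49Ab and Cpr76Bc were short of 2-fold here, at log2 ratios of -0.88, -0.75 and -0.86.

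Genes that make or modify chitin, the fibre to which CPR proteins bind, were set beside the family. Of 35 measured genes on this list, 1 was at least 2-fold higher and 2 lower in mutant heads than in WT control heads, where 1.74% and 11.5% of all genes were. The median log2 ratio was 0.35 over the 29 above the floor on at least 1 array. Cht5, a chitinase gene, was the higher one, at 27.2, 69.9, 53.1 and 24.8 on the arrays of WT control, mutant, rescue control and, last, neuronal rescue. In the neuronal rescue 7 of the 35 were lower than in rescue control heads and 2 higher, where 1.51% and 12.8% of all genes were, with a median of -0.61. The lower genes were the chitin deacetylase genes serp, verm and Cda4, the chitinase genes Cht2, Cht5 and Cht6, and exp.

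The signals of verm were 317 in WT control heads, 590.1 in mutant heads, 586 in rescue control heads and 272 in neuronal rescue heads. Those of serp were 432, 767.5, 648 and 301. For the epidermal chitin synthase gene kkv they were 97.5, 159, 136 and 79.6, with no 2-fold difference in either main comparison. All 3 had the mutant and rescue control above the WT control and neuronal rescue, the order seen for Cpr62Bb and Cpr62Bc. After centring on the head lists, 1 chitin gene was lower in neuronal rescue heads and 2 higher, where 0.668% and 15.1% of all genes were. The median was then -0.33, against 0.22 for all genes above the floor. The 2 higher ones in the deposited scaling, Chs2 and Cht12, were at the floor in rescue control heads and reached 31.3 and 54.1 in neuronal rescue heads. Cht12 also had 53.4 in WT control heads and 1.5 in mutant heads, bright where the testis genes were.

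Among other cuticle and apical matrix genes 2 were called, 1 in each main comparison. Of 13 measured, Vajk4 was higher in mutant heads (42.3, 124, 87.3 and 52.1 on the 4 arrays in the order used above) and Vajk2 lower in neuronal rescue heads (1306, 1565, 1509.8 and 733). Of all genes, 1.74% were higher in mutant heads and 1.51% lower in neuronal rescue heads. The medians over 9 genes were 0.26 and -0.73, against -0.0037 and -0.027 for all genes above the floor on at least 1 array. Vajk2 was not called after centring on the head lists. The genes resilin, for the elastic cuticle protein, and dy, dyl and neo, for zona pellucida domain proteins of the apical surface, were at the floor on all arrays.

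**Figure D4:**
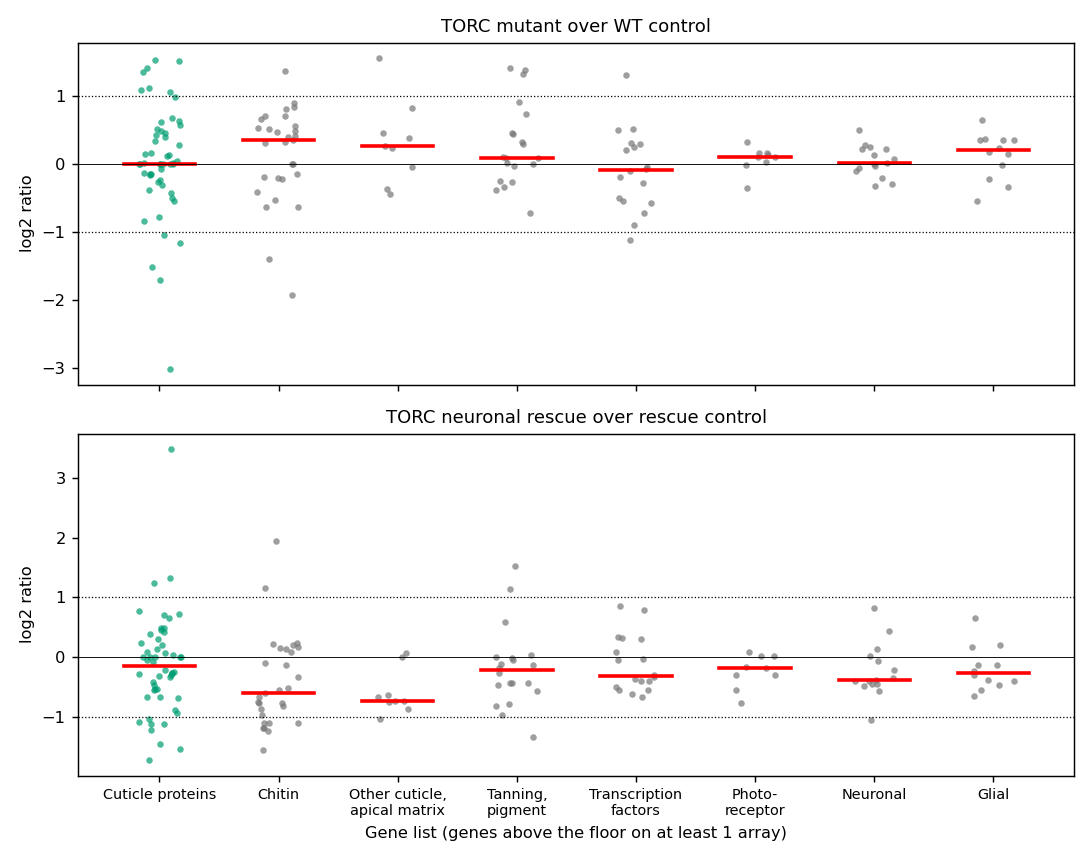
Log2 ratio (y axis) of each gene above the floor on at least 1 array, by gene list (x axis), for the mutant over the WT control (top) and the neuronal rescue over the rescue control (bottom); red bars are medians and dotted lines mark 2-fold. The chitin list has medians of 0.35 and -0.61 and the cuticle protein genes 0.0044 and -0.15, while the photoreceptor, neuronal and glial lists lie between 0.01 and 0.20 at the top and between -0.38 and -0.19 at the bottom.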

How the data were processed

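RNA from 4 groups, 1 array each, was measured, and groups were taken from the sample titles. Each deposited value is a linear intensity of 1 probe set that the authors summarised with MAS5, as the submitters' processing notes state. Version and genome build are not given in the sources used here. The 2% trimmed mean was 150.005 in each column, so arrays had been scaled before deposit, and the values were used unchanged. Of 18769 probe sets that are not controls, 13646 had 1 gene symbol in the platform annotation, 402 several and 4721 none. The cuticle genes had 106 probe sets with 1 symbol. A further 6 that name a cuticle gene among several symbols were left out. All 104 genes matched RefSeq (Release 6) by Entrez identifier, and RefSeq gave only gene order. No sequences or coordinates are given.

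Signals were raised to 14 and log2 transformed, and 2-fold calls were made over all genes. The precision is limited by the number of arrays. The calling step was tested on simulated signals, with changes planted only in genes well above the floor. No planted change lay at 2-fold, so the simulation does not bear on genes near the floor or on ratios near 2-fold. The members and the 14 gene lists were chosen with earlier results of these data known. The genes named were Crtc, the called members (at most 15 each way), the 12 brightest members, members of their runs or symbol stems, and called genes of each list. Members called in the other 4 pairings, and chitin genes beyond 6 calls, were named after their values had been seen. The counts of signs, of array order and of neighbouring runs, and the alternatives for the other pairings, were likewise chosen after seeing the data. Alternatives covered the floor, the scaling, the choice of probe set and the fold threshold. Python 3.11.15, numpy 2.4.6, pandas 2.3.3 and matplotlib 3.10.9 were used.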

Additional observations from a re-analysis of the deposited data

Results flagged for a closer look

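Acp65Aa stood out because its differences ran opposite ways when each low-Crtc array was set against its partner. It was lower in mutant heads than in WT control heads, with a log2 ratio of -1.72, and lower in neuronal rescue heads than in rescue control heads, with a log2 ratio of -1.45. Crtc was below the floor on the lower array of the first comparison and on the higher array of the second. Its rescue control signal of 160 was 2.25-fold below the 359 of the WT control and not called against the 109 of the mutant. With median centring the log2 ratio over the WT control was -0.83 in mutant heads and -0.34 in rescue control heads, both short of 2-fold. With 1 array per group this difference between the comparisons was not tested. Of all 11981 genes, 18 were at least 2-fold lower in both comparisons (0.15%).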

How the results depend on the processing

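With 1 array per group no replicate could be left out. No paired analysis was possible because each group holds 1 array and the result comes from no test. The 10 alternatives gave 64 values for the counts, medians and detection of the family, of which 38 stayed close to the main value, and the cause of the other changes was not tested. For the 7 higher calls in mutant heads, median centring gave 19, the 1.5-fold threshold 11 and the 3-fold threshold 0, where 29.4%, 6.61% and 0.509% of all genes were called against 18.3%, 10.6% and 0% of the family. For the 5 lower calls in mutant heads, the floor of 7 gave 8, the floor at the 60th percentile (59.5) 1, quantile normalization 2, median centring 1 and the 3-fold threshold 2, where 16.1%, 3.16%, 8.95%, 7.93% and 7.75% of all genes were called against 7.69%, 0.962%, 1.92%, 0.962% and 1.92% of the family. For the 3 higher calls in neuronal rescue heads, the floor of 7 gave 11, the 1.5-fold threshold 7, and the floor at the 60th percentile, quantile normalization, median centring and the 3-fold threshold 1 each, where 16.1%, 16.7%, 4.51%, 10.4%, 9.65% and 9.42% of all genes were called against 10.6%, 6.73% and then 0.962% of the family. For the 8 lower calls in neuronal rescue heads, the floor of 28 gave 5, the floor at the 60th percentile 4, centring on the head lists 4, median centring 21, the 1.5-fold threshold 13 and the 3-fold threshold 1, where 1.002%, 0.668%, 0.668%, 31.7%, 8.01% and 0.217% of all genes were called against 4.81%, 3.85%, 3.85%, 20.2%, 12.5% and 0.962% of the family. The median of the mutant over the WT control was 0.35 with quantile normalization and 0.57 with median centring. For all genes above the floor it was 0.085 and 0.81. That of the neuronal rescue over the rescue control was -0.62 with median centring, against -0.85 for all such genes. With centring on the head lists it was 0.013, against 0.22. Members above the floor numbered 84 with a floor of 7, 31 with a floor of 28 and 23 at the 60th percentile. Of 384 values for 24 named genes, 291 moved by less than the spread between probe sets of a gene. That spread leaves out variation between flies and between RNA preparations, so it is no measure of replicate error. The choice of probe set could not move these genes, which have 1 usable probe set each. Elsewhere in the family, Cpr47Ef and Lcp65Aa had more than 1. With the mean over probe sets, 6 family genes were lower in mutant heads, 5.77% against 11.5% of all genes. A new floor could not move those well above it, so the count is no measure of stability. Among called ratios 1 reversed, Cpr76Bc in mutant heads, at 0.0082 with quantile normalization. Of the 200 values whose main ratio was short of 2-fold, 12 changed sign. Signal over background limits the family: 20 of the 26 genes above the floor on 1 to 3 arrays never reached 28.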

Other observations

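Genes for the hardening and darkening of cuticle were called in 3 of 24 cases as higher in mutant heads than in WT control heads and in none as lower, where 1.74% of all genes were higher and 11.5% lower. They were ple, the tyrosine hydroxylase gene (32.5, 84.6, 86.5 and 44 on the arrays of WT control, mutant, rescue control and, last, neuronal rescue), yellow-d2 (31.9, 79.5, 125.8 and 50) and the prophenoloxidase gene PPO1 (22.4, 59.8, 44.5 and 97.5). Over the 20 genes above the floor on at least 1 array, the log2 ratios had a median of 0.09. In the neuronal rescue against the rescue control, yellow-d2 was lower and PPO1 and yellow-d higher, with a median of -0.22, where 1.51% of all genes were lower and 12.8% higher. The dopa decarboxylase gene Ddc, at 507, 542, 569.8 and 562, stayed within 2-fold, as did stw, the gene of the laccase that cross-links cuticle, at 295, 179, 250.5 and 185.

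Among 20 measured transcription factors of the ecdysone and juvenile hormone pathways and of the epidermis, the ecdysone receptor gene EcR was higher in mutant heads (53, 132, 83.9 and 54.5 on the 4 arrays) and sr lower (65.9, 30.3, 19.2 and 33.2). Of all genes, 1.74% were higher in mutant heads and 11.5% lower. None of the 20 was called in the neuronal rescue against the rescue control, where 12.8% of all genes were higher and 1.51% lower. After centring on the head lists 2 were higher there, as were 15.1% of all genes. The nuclear receptor gene ftz-f1, a regulator of cuticle genes at moults, had 327, 268, 127 and 79.5. It was lower on the rescue control and neuronal rescue arrays than on the others, along the split in the added Bacillus transcripts. Of 6 genes for eclosion and tanning hormones and their receptors, the eclosion hormone gene Eh was below the floor in WT control heads, at 11.4, and had 87, 168 and 100.4 in the other groups, in the same order.

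Some probe sets left out for naming several genes were above the floor. The one shared by Ccp84Aa and Ccp84Ab had signals of 52.5, 72, 53.2 and 21.6, and the one shared by Lcp65Ag1 and Lcp65Ag2 had 21.6, 64, 27 and 51.2. They cannot be assigned to 1 gene.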
